A study of Mus musculus with 2 samples.

Results

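Divergent bidirectional promoters are short stretches of DNA from which 2 genes are read in opposite directions. The set described here holds every pair of protein-coding genes of the GENCODE M21 annotation (mm10) that lie head to head on opposite strands, with their most 5′ transcription start sites (TSSs) at most 1 kb apart and gene bodies that do not overlap. The rule gave 754 pairs built from 1487 genes, which is 6.78% of the 21938 protein-coding genes. The pairs occupy 752 stretches that differ in their coordinates. Since 21 genes belong to 2 pairs, some of these stretches overlap and share a peak, as at Pms1/Ormdl1 and Pms1/Gm28778. A member is a DNase I hypersensitive site (DHS), that is a peak in the authors' larger peak list of a library, that overlaps the stretch between both TSSs extended by 250 bp on either side. Members numbered 904 of 90059 peaks (1.00%) in replicate 1 and 926 of 175597 peaks (0.527%) in replicate 2. No measured value entered the choice of pairs.

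The study measured DNase I accessibility by DNase-seq, in which nuclei are treated with DNase I and the released ends of open chromatin are sequenced. Each library was made from left cerebral cortex of a 14-day-old female mouse of strain B6CASTF1/J, the F1 offspring of a cross between the strains C57BL/6J and CAST/EiJ. In the labels they are biological replicate 1 and biological replicate 2 of 1 donor record but carry different animal numbers, with no treatment or engineered allele. They form 1 group of 2 libraries, so no comparison between conditions exists, no p-value was computed, and every difference below is a description of these libraries.

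As background, a CpG-rich promoter usually lies in a nucleosome-depleted stretch of DNA where general transcription factors and sequence-specific factors bind. In a head-to-head pair both genes can draw on the same depleted stretch, and many such pairs encode proteins of basic cell maintenance: DNA repair, mitochondria, translation and protein folding. DNase I cuts depleted DNA, and short runs inside a DHS that are cut less than their surroundings are called footprints, since a bound protein can shield them. Accessibility is not transcription, and RNA was not analysed here.

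Bulk tissue mixes cell types, so a low signal can come from a low share of cells or from weaker opening in each cell. These cannot be told apart. The labelled tissue was checked against marker genes, counting a gene when a peak in both libraries lay within 1 kb of any of its TSSs. All 7 neuronal markers and all 5 glutamatergic markers had such a peak, including Snap25, Rbfox3, Slc17a7 and Tbr1. So did 3 of 4 interneuron, 4 of 5 astrocyte and 4 of 5 oligodendrocyte-lineage markers, 2 of 4 microglial, 0 of 4 endothelial, 0 of 3 liver and 0 of 3 hindbrain markers. Of 3 muscle markers, Myh7 and Ckm had one. Ckm also belongs to the pair Klc3/Ckm, whose narrower stretch held no peak in either library, the nearest lying 435 bp outside it in both.

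The DNA between the TSSs of 6 pairs is shown to let a reader see how footprints sit in such a promoter. They come from a list of well-known head-to-head pairs, followed by the pairs with the highest signal, and their TSSs leave 40 to 300 bases between them. Each run is the plus strand of mm10 (GRCm38.p6, RefSeq), from the base after the TSS of the minus-strand gene to the base before the TSS of the plus-strand gene. It lies between 2 first exons and overlaps no other annotated gene. Capitals mark bases that lie in footprints of both libraries, within a member peak. The coordinates are chr7:28741821-28741991 for Mrps12/Sars2, chr1:82586850-82586920 for Col4a4/Col4a3, chr11:101551956-101552148 for Brca1/Nbr1, chr2:11777583-11777875 for Fbh1/Ankrd16, chr7:141327691-141327738 for Deaf1/Tmem80 and chr5:120612590-120612738 for Rita1/Ddx54.
Mrps12/Sars2: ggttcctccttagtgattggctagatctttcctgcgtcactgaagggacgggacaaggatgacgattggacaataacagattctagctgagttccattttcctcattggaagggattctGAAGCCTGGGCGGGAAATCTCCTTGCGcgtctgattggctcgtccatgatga
Col4a4/Col4a3: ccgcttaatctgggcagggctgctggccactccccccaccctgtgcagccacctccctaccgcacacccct
Brca1/Nbr1: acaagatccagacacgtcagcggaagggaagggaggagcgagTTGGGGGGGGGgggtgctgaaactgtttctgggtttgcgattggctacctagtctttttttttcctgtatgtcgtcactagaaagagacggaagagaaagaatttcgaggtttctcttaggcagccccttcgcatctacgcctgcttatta
Fbh1/Ankrd16: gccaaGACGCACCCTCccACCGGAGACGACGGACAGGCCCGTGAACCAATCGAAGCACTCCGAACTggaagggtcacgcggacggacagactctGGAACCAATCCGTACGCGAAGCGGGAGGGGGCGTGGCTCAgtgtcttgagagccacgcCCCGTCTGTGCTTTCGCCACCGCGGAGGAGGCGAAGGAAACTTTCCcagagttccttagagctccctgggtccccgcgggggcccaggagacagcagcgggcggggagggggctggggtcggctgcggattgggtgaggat
Deaf1/Tmem80: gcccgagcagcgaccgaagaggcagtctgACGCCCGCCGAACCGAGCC
Rita1/Ddx54: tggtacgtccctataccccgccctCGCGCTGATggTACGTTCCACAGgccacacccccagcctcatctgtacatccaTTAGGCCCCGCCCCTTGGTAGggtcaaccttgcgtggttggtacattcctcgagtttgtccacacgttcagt

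Fbh1/Ankrd16 has the longest marked runs, with 145 of its 293 bases (49.5%) in footprints of both libraries. Deaf1/Tmem80 carries 1 footprint in each library, and 19 of its 48 bases (39.6%) were marked. In Brca1/Nbr1 only 11 of 193 bases (5.70%) were marked, and they fall in a run of G. The Col4a4/Col4a3 run is GC-rich (69.0% G or C) but had no peak and no footprint in either library. In Rita1/Ddx54 the last marked run holds the SP/KLF consensus GGGGCGGGG on the opposite strand, the one case among the 6 in which a searched consensus lies wholly in capitals.

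Nearly all pairs were accessible. A member peak was found in both libraries at 701 of 754 pairs (93.0%, Wilson 95% interval 90.9% to 94.6%, which covers counting error only). Each library on its own had a peak at 706 pairs, 5 of them in that library alone, and 43 pairs had none. Over all protein-coding genes, 52% had a peak in both libraries within 250 bp of their most 5′ TSS. Measured by that same window around each gene's own TSS, the genes of head-to-head pairs reached 90.7% (1348 of 1487) and all other protein-coding genes 49.2% (10063 of 20451). The TSSs of a pair lie a median of 129.5 bp apart, so the window of 1 gene often takes in its partner's TSS too. A peak there can count for both genes. The 10 pairs with a peak in 1 library only had low peaks there, with signals from 0.269 to 0.871.

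Pairs are richer in CpG than other promoters: 52.2% of their genes fell in the highest quartile of CpG observed over expected within 500 bp of the TSS, against 23.0% of other genes. Shares within each quartile are therefore given beside the whole. In the highest quartile 98.3% of 776 genes of pairs (interval 97.2% to 99.0%) and 90.2% of 4710 other genes (89.4% to 91.0%) had a peak in both libraries. In quartile 3 the shares were 93.3% of 540 (90.9% to 95.1%) and 79.7% of 4943 (78.6% to 80.8%). In quartile 2 they were 57.9% of 140 (49.6% to 65.7%) and 31.9% of 5344 (30.7% to 33.1%). In the lowest quartile none of 31 genes of pairs had a peak in both, which allows a share of up to 9.68% by the limit of 3 counts (Wilson upper bound 11.0%), and 3.10% of 5454 other genes did. The counting intervals of pairs and other genes did not overlap in quartiles 2 to 4 and did in quartile 1. Genes of a pair share their DNA, so these intervals are too narrow for them, and 1 peak often counts for both genes.

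**Figure D1:**
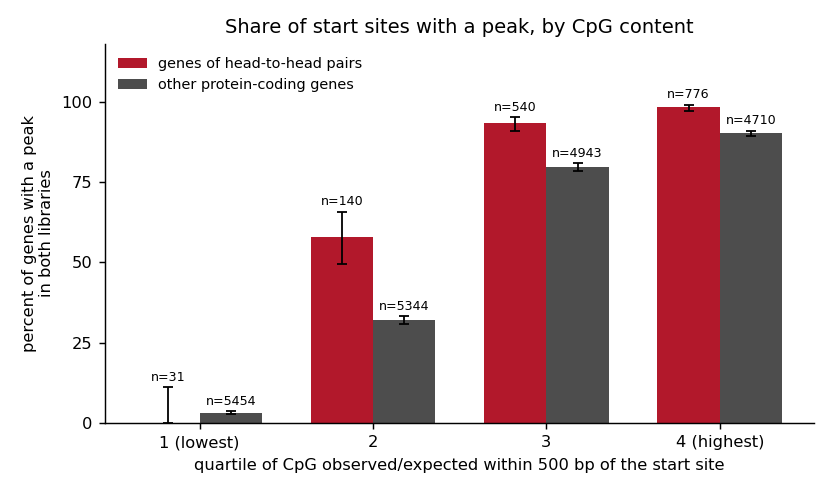
Bars give the percent of genes with a peak in both libraries within 250 bp of the most 5′ TSS (y axis), by quartile of CpG observed over expected (x axis), for genes of head-to-head pairs (red) and other protein-coding genes (grey); bars on top are Wilson 95% intervals of the count. The red bar is the higher one in quartiles 2 to 4, at 57.9%, 93.3% and 98.3% against 31.9%, 79.7% and 90.2%.

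The signal of a pair is the deposited signal of its highest member peak, a value in units that the sources do not state. Its median over the 701 accessible pairs was 4.01 in replicate 1 and 3.52 in replicate 2 (mean of both medians 3.77 ± 0.347, SD, n = 2). Other accessible coding promoters had medians of 2.36 and 1.98, and all peaks of the libraries had medians of 0.678 and 0.463. The middle 50% of accessible pairs lay between 2.77 and 5.53 in replicate 1 and between 2.19 and 5.38 in replicate 2. Member peaks had a median at percentile 93.7 of all peaks in replicate 1 and at percentile 96.7 in replicate 2. They made up 112 and 116 of the 1000 highest peaks, so a set of 1.00% and 0.527% of all peaks supplied 11.2% and 11.6% of the highest ones. Within the highest CpG quartile the medians were 4.12 and 3.62 for genes of pairs, and 3.05 and 2.51 for other genes.

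**Figure D2:**
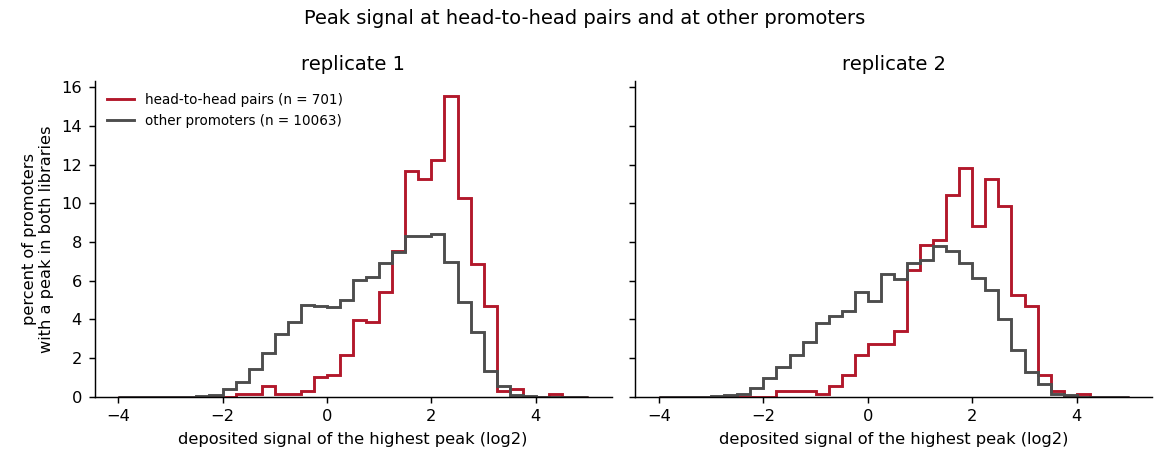
Step lines give the percent of promoters (y axis) by the log2 of the deposited signal of their highest peak (x axis, bins of 0.25) in replicate 1 (left) and replicate 2 (right), for 701 head-to-head pairs (red) and 10063 other coding promoters (grey) with a peak in both libraries. The red line sits to the right of the grey one in both libraries, with medians of 4.01 and 3.52 against 2.36 and 1.98 on the linear scale.

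Other head-to-head arrangements give a scale for these values. Among 108 coding pairs whose TSSs lie 1001 to 2000 bp apart, 75% were accessible in both libraries (66.1% to 82.2%), with median signals of 2.95 and 2.36. Among 898 head-to-head pairs of a coding and a non-coding gene within 1 kb, leaving out the genes of the coding pairs, 79.2% were accessible (76.4% to 81.7%), with medians of 3.28 and 2.74. At the edge of the rule, 19 of 21 pairs 750 to 1000 bp apart and 19 of 22 pairs up to 250 bp further apart than 1000 bp were accessible, with median signals of 3.23 and 3.15 just inside and 2.45 and 2.47 just outside. Btf3l4/Txndc12 had the widest spacing within the rule, 987 bp, and signals of 2.62 and 2.08.

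Most pairs had a single DHS that reached both TSSs. Exactly 1 member peak was found at 513 of 706 pairs in replicate 1 (72.7%) and 502 of 706 in replicate 2 (71.1%). Peaks covered both TSSs at 68.8% and 68.6% of these pairs (68.7% ± 0.200, SD, n = 2), and 1 single peak reached over both at 61.0% and 59.8% (60.4% ± 0.901). Only 1 TSS was covered at 175 and 180 pairs, and neither at 45 and 42. The midpoint of the highest peak fell between both TSSs at 67.0% and 66.6% of pairs (66.8% ± 0.300), at a median of 37.5 and 37 bp from the point halfway between them. Both TSSs were covered in both libraries at 433 of the 701 accessible pairs (61.8%). At 44 pairs only the TSS on the minus strand was covered in both libraries, at 71 only the one on the plus strand, and at 131 the cover differed between libraries.

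The layout changed with the distance between TSSs, whose median was 129.5 bp (quartiles 67 and 240 bp). The highest peak had a median width of 240 bp in both libraries, so a single peak can reach over both TSSs only where they are close. At 126 accessible pairs 1 to 50 bp apart, a single peak covered both TSSs in 97.6% of cases in each library. That share was 91.3% and 90.2% at 51 to 100 bp, 61.3% and 61.9% at 101 to 200 bp, 28.7% and 23.4% at 201 to 300 bp, 9.52% and 6.35% at 301 to 500 bp, and 0 beyond 500 bp. In the other direction, the share whose highest peak was centred between the TSSs went from 36.5% and 34.1% in the closest pairs to 84.1% in both libraries at 301 to 500 bp, and was 81.4% and 72.1% beyond. A wider gap holds a midpoint more easily, so this rise does not mean better centred peaks. The median distance from that midpoint to the point halfway between the TSSs grew from 26 and 24 bp in the closest pairs. It was 122 and 126.5 bp at 301 to 500 bp, and 274.5 and 300 bp beyond. Pairs with only 1 peak went from 84.1% and 81.7% to 30.5% and 32.8% over the same range of distances to 1000 bp. The median signal was lower in pairs up to 50 bp apart (3.51 and 2.67) and 51 to 100 bp apart (3.59 and 2.94) than in pairs 301 to 500 bp apart (4.60 and 4.90), and it was 3.97 and 3.50 beyond 500 bp. The share accessible in both libraries was 98.4% in the closest pairs and 82.9% beyond 500 bp, where the median CpG observed over expected was also lower (0.626 against 0.798).

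**Figure D3:**
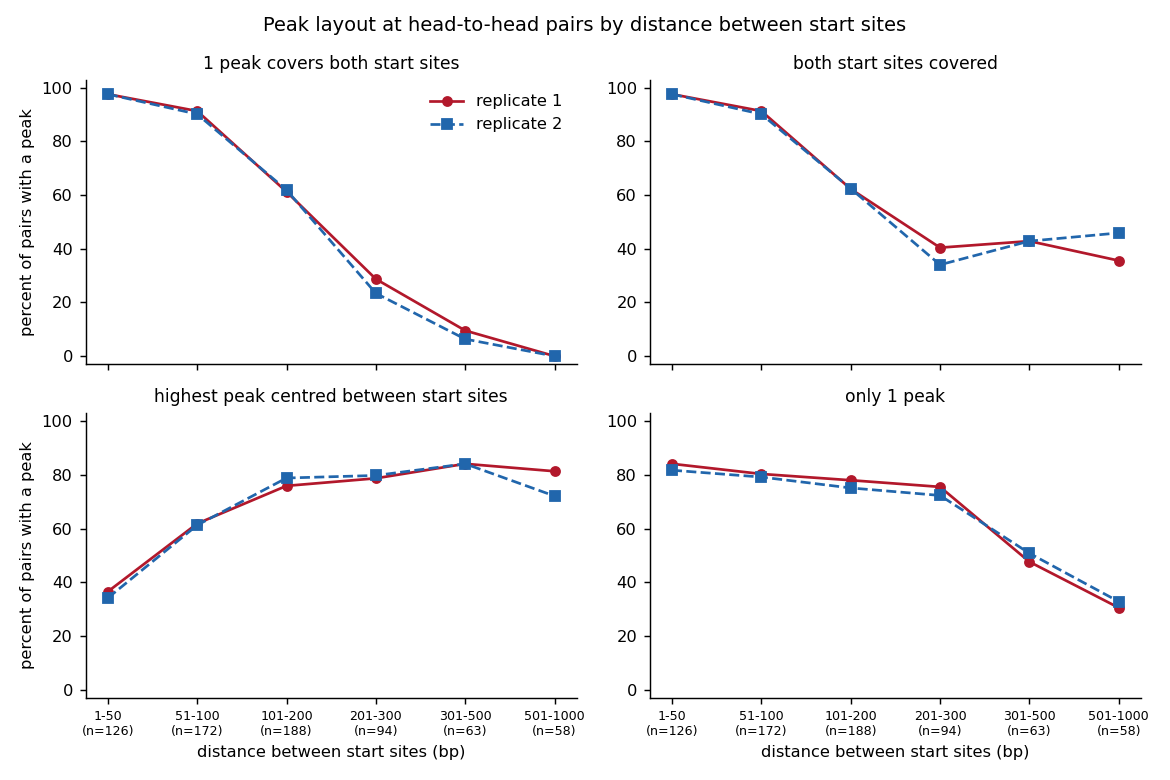
Each panel plots a percent of the pairs with a peak (y axis) against the distance between TSSs in bp (x axis, n being pairs accessible in both libraries), for replicate 1 (red circles) and replicate 2 (blue squares). The share with a single peak over both TSSs falls from 97.6% to 0 with distance, while the share with both TSSs covered is 35.6% and 45.9% beyond 500 bp. The midpoint of the highest peak lies more often between the TSSs, up to 84.1%, where a wider gap also holds it more easily.

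At 144 accessible pairs (20.5%) both libraries had 2 or more member peaks. Their TSSs lay a median of 266.5 bp apart, against 106 bp for the 450 pairs with 1 peak in both libraries. The second highest peak there reached a median of 59.3% and 58.1% of the highest one. The signal of the highest peak was a median of 3.64 and 3.22 at these pairs and 4.31 and 3.74 at the pairs with 1 peak.

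Among the 10 pairs with the highest mean signal, Hjurp/Trpm8 was highest, with signals of 20.5 in replicate 1 and 18.8 in replicate 2. Hjurp encodes the chaperone that loads the centromeric histone CENP-A, and Trpm8 the cold-sensing ion channel of sensory neurons, and their TSSs at chr1:88277633 and chr1:88277661 lie 28 bp apart under 1 peak. No other pair came near this level: next were Fbh1/Ankrd16, with a DNA helicase of homologous recombination, at 11.8 and 10.5, and Deaf1/Tmem80, with the transcription factor DEAF1, at 12.1 and 9.98. Rita1/Ddx54 (8.96 and 12.3) joins a regulator of the Notch effector RBPJ and an RNA helicase. Its highest peak was centred 326.5 and 316.5 bp from the point halfway between the TSSs, outside the stretch between them, on the side of Ddx54.

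Cdc27/Myl4 (11.9 and 8.38) pairs a subunit of the anaphase-promoting complex with an atrial myosin light chain, and Tom1l2/Drc3 (8.36 and 11.7) an endosomal sorting protein with a subunit of the ciliary dynein regulatory complex. Cep57/Fam76b had a centrosomal gene on the minus strand and signals of 9.82 and 10.1. Nop14/Grk4, a ribosome biogenesis factor and a G protein-coupled receptor kinase, followed at 8.94 and 10.6. Rer1/Morn1 (10.7 and 8.597) and Rnf5/Agpat1 (9.32 and 9.79) closed the 10. Peaks covered both TSSs in both libraries at 7 of the 10, all but Fbh1/Ankrd16, Tom1l2/Drc3 and Rnf5/Agpat1. The order among these 10 is uncertain, since replicates differed by up to 1.42-fold within a pair, while Hjurp/Trpm8 lay above all others in both libraries.

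Of 20 well-known head-to-head pairs that were looked up, 8 met the rule and 7 of these were accessible in both libraries. Pdcd10/Serpini1, with a cerebral cavernous malformation gene and the neuronal serpin neuroserpin, had signals of 7.41 and 8.54, and 2 peaks in each library. With TSSs 691 bp apart it had 11 footprints in each library, of which 10 and 11 lay between the TSSs. Mcm4/Prkdc joins a subunit of the replicative helicase and the catalytic subunit of the DNA-dependent protein kinase, and had 6.33 and 7.66.

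Atm/Npat, with the DNA damage kinase ATM and a regulator of histone gene transcription, had 6.25 and 6.70. Mrps12/Sars2, with a mitochondrial ribosomal protein and the mitochondrial seryl-tRNA synthetase, had 5.49 and 5.58. Brca1/Nbr1, with a DNA repair protein and an autophagy receptor, was the lowest of the 7 at 3.03 and 3.01, below the median of accessible pairs. Col4a4/Col4a3, which encode collagen IV chains of the kidney's glomerular basement membrane, had no peak. In both libraries each of the 7 held at least 2 footprints, and replicate values within a pair differed by at most 1.21-fold.

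**Figure D4:**
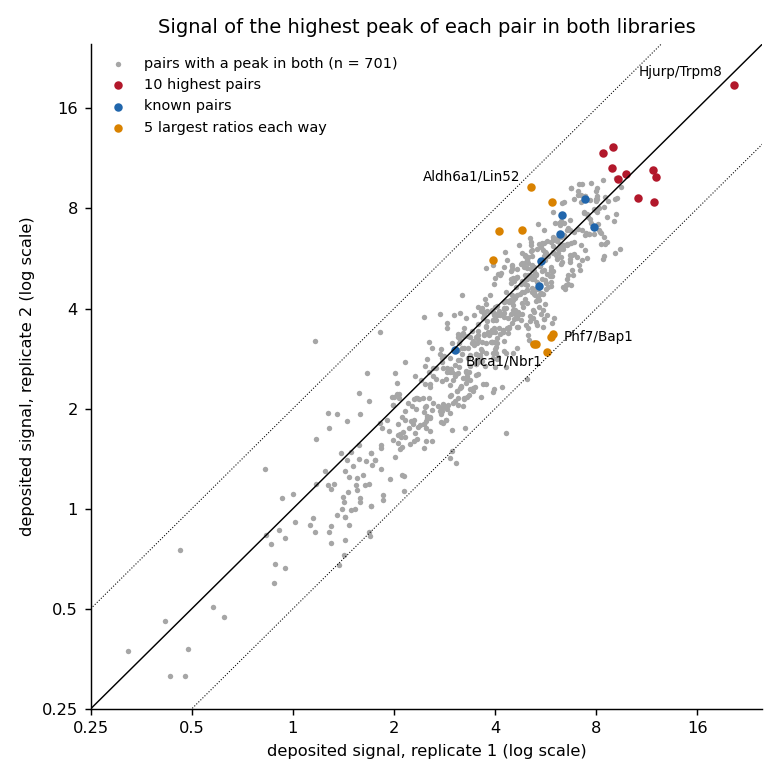
Each point is 1 of 701 accessible pairs, with the deposited signal of its highest peak in replicate 1 (x axis) and replicate 2 (y axis), both on log scales; red marks the 10 highest pairs, blue the known pairs and orange the 5 largest ratios in each direction among pairs at or above the median. The solid line marks equal values and dotted lines a 2-fold difference, which 7 pairs exceed on this deposited scale.

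Pairs were also grouped by gene symbol into classes by function. All members were accessible in both libraries among the mitochondrial ribosome (18 pairs), the respiratory chain (24), the transcription machinery (24), the cilium and centrosome (17), the proteasome (8), mitochondrial import (5) and the aminoacyl-tRNA synthetases (5). These shares stand beside the 93.0% of all pairs and differ from it by few pairs. Genes of pairs made up 23.1% of 78 mitochondrial ribosome genes, 22.4% of 107 respiratory chain genes, 28.3% of 60 cilium and centrosome genes and 26.5% of 83 replication and repair genes. By comparison they were 5.08% of 394 Zfp genes and 4.58% of 371 solute carriers, and 6.78% of all protein-coding genes. In 9 of the 14 classes no pair had both genes in the class.

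Signals varied more than 2-fold within each class. Chaperones had a median mean signal of 5.68 over 11 accessible pairs, led by Hsp90b1/Ttc41 (8.17 and 8.04), whose minus-strand gene encodes the endoplasmic reticulum chaperone GRP94, and by Tbccd1/Dnajb11 (7.70 and 7.24). Cytosolic ribosome pairs, taken by symbols starting with Rpl or Rps, had 5.59 over 9 pairs. They were led by Med22/Rpl7a (7.68 and 7.45) and Rpl9/Lias (9.07 and 5.88). The 9 include Rps6kb1/Tubd1, whose minus-strand gene matched by symbol but encodes a kinase and not a ribosomal protein. Mitochondrial ribosome pairs had 4.54, from 1.23 to 7.75, with Klc4/Mrpl2 highest at 9.44 and 6.06 and Mrpl49/Fau next at 7.51 and 5.68.

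Respiratory chain pairs had a median of 3.78, from 1.04 to 7.36. Tepsin/Ndufaf8, with an assembly factor of complex I, had 8.48 and 6.24, and Uqcrq/Gdf9, with a subunit of complex III and an oocyte growth factor, had 5.91 and 8.38. The order of these 2 pairs turned around between the libraries. Transcription machinery pairs had a median of 3.76 and were led by Med22/Rpl7a and by Gtf3c1/D430042O09Rik (8.21 and 6.81). Replication and repair pairs had 3.63 over 19 accessible pairs, with Mcm4/Prkdc at 6.33 and 7.66 among the highest.

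Proteasome pairs had a median of 3.33, with Mrpl32/Psma2 at 5.11 and 6.19 and Psmb1/Tbp, which joins a core proteasome subunit and the TATA-binding protein, at 6.38 and 4.63. Mitochondrial import pairs were the lowest class, with a median of 2.21 and Tomm6/Frs3 highest at 4.41 and 4.19. Aminoacyl-tRNA synthetase pairs had 4.24, with Mrps12/Sars2 and S100pbp/Yars (4.64 and 4.98) highest. Among cilium and centrosome pairs (median 4.05), Cep57/Fam76b was followed by Cramp1l/Ift140 (8.04 and 8.52), with a subunit of the intraflagellar transport complex. Solute carriers (3.32 over 15 of 16 pairs) were led by Cdk5/Slc4a2 (7.65 and 8.46), whose minus-strand gene encodes a kinase of neuronal migration, and by Slc39a7/Rxrb (6.60 and 4.73). Zinc finger pairs (3.30 over 17 of 18) were led by Zfp654/Cggbp1 (7.27 and 9.51) and Zfp277/Dock4 (7.34 and 7.74), and Tmem pairs (4.20 over 22 of 23) by Deaf1/Tmem80 and Chchd4/Tmem43 (6.87 and 6.82).

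Histone genes stood out by their make-up. Replication-dependent histone genes lie in clusters of near-identical copies, and 40.3% of 67 Hist genes belong to a head-to-head pair. In 13 of the 14 pairs both genes are histones, mostly an H2A and an H2B gene. Only 11 of the 14 were accessible in both libraries, with a median mean signal of 2.90, and Hist1h2bf/Hist1h2ad was highest at 5.33 and 4.82. Their stretches share sequence: at Hist1h2bq/Hist1h2ao and Hist1h2ap/Hist1h2br, both without a peak, every stretch of 31 bases occurs again elsewhere in the genome (100% repeated). At Hist1h2bf/Hist1h2ad that share was 46.6%. It was only 2.96% at Hist1h2ba/Hist1h2aa, the remaining histone pair without a peak. Reads from repeated sequence may not be placed uniquely, and the aligner is not named in the sources used here. Histone values are therefore uncertain. The part of repeats in the missing peaks was not tested.

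Footprints were found in nearly every accessible pair. The median was 5 per pair in both libraries, with means of 5.41 and 5.88, and only 3 and 2 pairs with a peak had none. Other accessible coding promoters had a median of 4 and means of 4.10 and 4.50. A footprint was present at 94.2% and 95.3% of them, against 99.6% and 99.7% of pairs. In the highest CpG quartile the median was 5 in both libraries for genes of pairs and for other genes alike. The means there were 5.29 and 5.61 against 4.79 and 5.23. In quartile 3 the medians were 4 and 5 against 4 and 4, and in quartile 2 they were 4 against 3 in both libraries. Per 100 bp of peak the pairs had 1.61 and 1.73 footprints and other promoters 1.36 and 1.50. A pair's stretch is longer than the window of a single TSS: with the same window around each gene's own TSS, genes of pairs had 1.68 and 1.81 per 100 bp. Of the footprints at accessible pairs, 79.2% of those in replicate 1 and 69.0% of those in replicate 2 overlapped a footprint of the other library. At other promoters these shares were 74.0% and 60.5%.

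Within the peaks, footprints were denser between the TSSs than outside them. There were 1.95 and 2.12 footprints per 100 bp of peak between the TSSs, and 1.39 and 1.48 outside. The DNA between the TSSs held 46.7% and 47.4% of footprints in 38.6% of the peak bases of each library. Single promoters had a similar split between the side upstream of the TSS (1.56 and 1.71 per 100 bp) and the side downstream of it (1.18 and 1.35). In a pair the DNA between the TSSs is upstream of both genes.

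At the point halfway between the TSSs 83.2% and 82.9% of pairs were covered by a peak, and 35.4% and 42.3% of covered bases lay in a footprint. Cover was 64.2% and 63.1% at 100 bp toward the minus-strand gene and 64% and 63.3% at 100 bp toward the plus-strand gene. Which gene of a pair lies on the minus strand is arbitrary, so the average over pairs is near symmetric by construction. Other promoters were laid out by the direction of their gene, with cover of 69.4% and 71.1% at 100 bp upstream and 41.1% and 38.2% at 100 bp downstream. The share of covered bases in a footprint there was 23.0% and 29.2% upstream and 14.998% and 19.99% downstream. At pairs it was 23.9% and 32.7% on the minus-strand side and 27.3% and 34% on the plus-strand side.

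**Figure D5:**
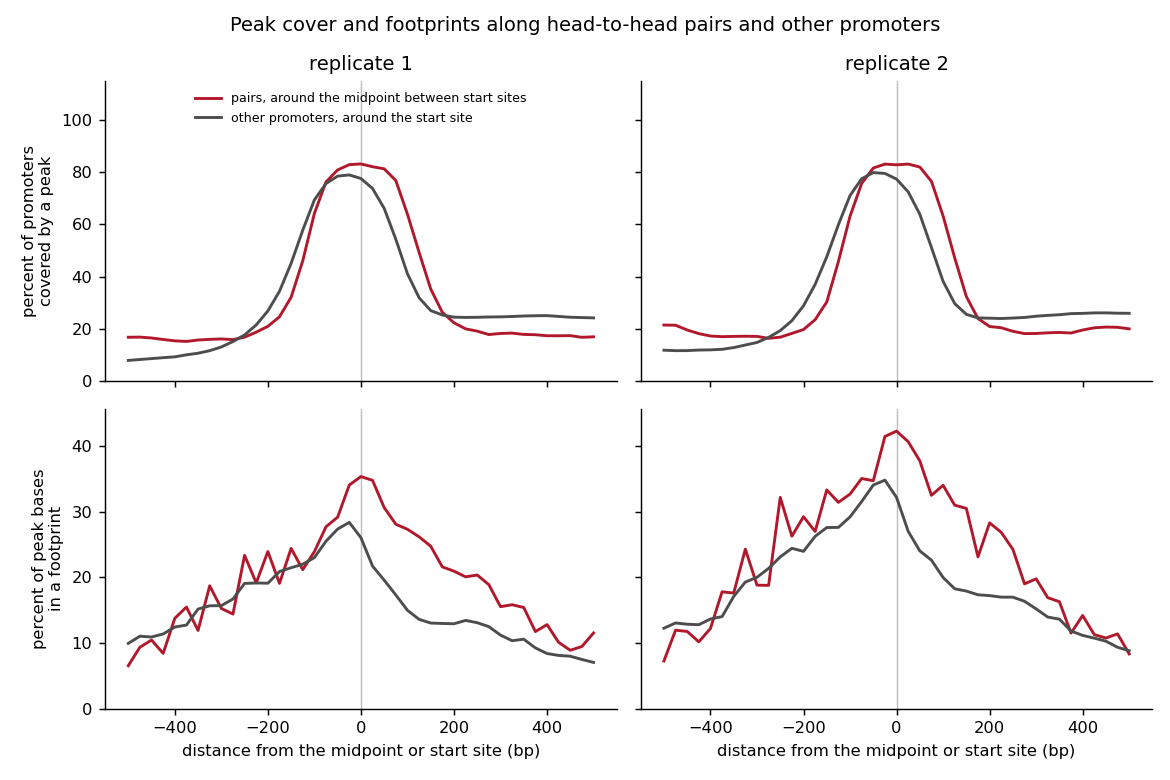
The upper panels plot the percent of promoters covered by a peak and the lower panels the percent of covered bases in a footprint (y axes) against the distance in bp from the point halfway between the TSSs of accessible pairs (red) or from the TSS of other accessible promoters, upstream to the left (grey), in replicate 1 (left) and replicate 2 (right), averaged in steps of 25 bp. Peak cover at 0 bp is 83.2% and 82.9% on the red curves. Red curves are near symmetric because pairs are laid out by strand, and grey curves run with the direction of the gene.

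The pairs with the most footprints were not those with the highest signal. Ppp1r3d/Fam217b, with a glycogen-targeting subunit of protein phosphatase 1, had 23 and 20 footprints at signals of only 1.00 and 1.11. They lay in 1100 and 1328 bp of peak, and 3 and 0 of them were between the TSSs. Mrpl40/Hira, with a mitochondrial ribosomal protein and a histone chaperone, had 21 and 11 at 2.79 and 2.03. Cbx5/Hnrnpa1, a head-to-head pair of the heterochromatin protein HP1 alpha and an RNA-binding protein, had 15 and 16 at 5.33 and 6.05. Tada2b/Ccdc96 had 15 in each library and Cryzl1/Itsn1 12 and 17. The peaks of these pairs summed to between 520 and 1328 bp per library, against means of 336 and 341 bp over all pairs with a peak. Hjurp/Trpm8, the highest pair by signal, had 4 footprints in each library, in 220 bp of peak.

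Short consensus letters of 16 transcription factor families were searched on both strands in 500-bp windows centred halfway between the TSSs. The share of pairs is set beside that of windows on the TSS of 20451 other coding genes. It is also set beside that of the 9653 of these genes in CpG quartiles 3 and 4. The TSSs of a pair lie a median of 129.5 bp apart, so the window of a pair often takes in both. A comparison window is centred on the TSS of its own gene only. The shares are thus per window and not per TSS, and the part of this in their differences was not tested. The ETS consensus CCGGAAGT was in 15.3% of pairs (Wilson interval 12.9% to 17.99%), in 5.22% of other windows and in 9.43% of CpG-rich ones. The YY1 consensus AAGATGGCG was in 7.43% (5.76% to 9.52%), 2.49% and 4.72%. NFY letters, CCAATCA, were in 18.2% (15.6% to 21.1%), 10.01% and 10.8%, and those of NRF1, GCGCATGCG, in 5.70% (4.26% to 7.59%), 2.60% and 4.31%. A match is a run of letters and says nothing about binding.

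The interval of NRF1 included the CpG-rich share. Of the other 12 letters, only the RFX site had an interval wholly above the share of CpG-rich windows. SP/KLF letters, GGGGCGGGG, were in 24.8% of pairs, 17.1% of other windows and 30.0% of CpG-rich ones. The TATA letters TATAAAA were in 3.32%, 6.89% and 2.95%, and the E-box CAGATG of neuronal bHLH factors in 15.1%, 23.6% and 14.6%. The CRE palindrome TGACGTCA was in 4.77%, 2.59% and 4.09%, USF letters TCACGTGA in 2.92%, 1.27% and 2.06%, and the RFX site GTTGCCATG in 1.86% (1.11% to 3.09%), 0.831% and 0.767%. The AP-1 letters TGAGTCA were in 3.98%, 6.63% and 3.81%. For the remaining 5 (CTCF core AGGGGGCGC, EGR GCGTGGGCG, NFI site TTGGCA, ZNF143 ACTACAATT and MEF2 CTATTTATA) the shares of pairs were 2.12%, 1.46%, 15.5%, 1.06% and 0.265%, and those of CpG-rich windows 3.76%, 2.23%, 14.1%, 0.580% and 0.269%.

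Letters differed in how often a match inside a member peak lay wholly within a footprint. For the CRE this held for 87.2% of 39 matches in replicate 1 and 75.7% of 37 in replicate 2, for NRF1 for 69.4% of 85 and 82.7% of 81, and for SP/KLF for 55.4% of 231 and 75.2% of 222. ETS matches reached only 17.9% of 106 and 17.8% of 107, and NFY matches 8.13% of 160 and 13.8% of 174, although both were frequent at pairs. At other promoters the order was alike, with 70.6% and 68.8% for the CRE, 64.9% and 82.3% for NRF1, 16.04% and 17.7% for ETS and 11.4% and 17.3% for NFY. Footprint widths set part of this measure, since a whole match must lie inside a footprint of a median 12 and 13 bp. With any overlap counted, 60.6% of all matches in place of 37.8% fell on a footprint, as a mean of both libraries.

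An SP/KLF match lay within a footprint of both libraries at 105 pairs, an NRF1 match at 33, a CRE at 28, an ETS match at 12, a CTCF core at 9 and an EGR match at 7. Mcm4/Prkdc and Mrpl32/Psma2 were among those with NRF1. Cep57/Fam76b and Mrpl49/Fau were among those with a CRE. The RFX site was found so at 4 pairs, including Rer1/Morn1 and Rnf5/Agpat1 of the 10 highest.

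Both libraries ordered the pairs alike. Across the 701 accessible pairs the log2 signals had a Pearson correlation of 0.936, a description that the shared genome and tissue contribute to. The log2 ratio of replicate 2 to replicate 1 had a median of -0.16 and an SD of 0.33, and 493 pairs were higher in replicate 1 and 208 in replicate 2. This direction depends on scale: after division by each library's median over all peaks the median ratio was 0.39. Those medians are taken over 90059 peaks in replicate 1 and 175597 in replicate 2, and the part of list length in them was not tested. At other promoters the median was -0.21 on the deposited scale, with 7446 higher in replicate 1 and 2617 in replicate 2. On the deposited scale more than a 2-fold difference was seen at 7 pairs (0.999%) and at 1.85% of other accessible promoters. Of these, 6 of the 7 pairs and 154 of the 186 other promoters were higher in replicate 1. After that division it was seen at 25 pairs (3.57%) and at 3.48% of other promoters. All 25 pairs and 338 of the 350 other promoters were then higher in replicate 2, so the direction was shared with other promoters on both scales. The median signals equal 521 steps of 0.00771 in replicate 1 and 708 steps of 0.00498 in replicate 2, and the sources do not state what a step is.

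On the deposited scale and among pairs at or above the median signal, the largest ratios toward replicate 1 included those at 0610012G03Rik/Ncbp2 (5.86 and 3.29), Phf7/Bap1 (5.96 and 3.35), B3galt6/Sdf4 (5.29 and 3.12) and Polr1c/Yipf3 (5.23 and 3.13). Toward replicate 2 they were Aldh6a1/Lin52 (5.11 and 9.25, 1.81-fold), Gm28635/Med19 (4.10 and 6.82), Casc1/Etfrf1 (4.81 and 6.89), Mmachc/Ccdc163 (3.93 and 5.60) and Uqcrq/Gdf9. Of the 7 pairs over 2-fold on that scale, named after their values were seen, 6 were higher in replicate 1, and none of these 6 passed 2-fold on the other scale. They were Emc3/Fancd2 (4.30 and 1.69), Srrd/Hps4 (3.05 and 1.37), Spaca9/Ak8 (2.94 and 1.42), Dhrs1/Nop9 (1.70 and 0.826), Dus4l/Cog5 (4.99 and 2.45) and Gm49661/Prdx2 (1.37 and 0.677). The other one, Hist1h2ae/Hist1h2bg (1.16 and 3.19), a histone pair with 35.9% repeated sequence, was over 2-fold toward replicate 2 on both scales. With 1 library for each numbered animal, none of these ratios has a replicate check.

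The 43 pairs without a peak in either library had less CpG than the rest, with a median observed over expected of 0.285 against 0.783 at accessible pairs. They fell into 3 kinds. At 15 pairs another annotated TSS of at least 1 of the 2 genes (both genes at 2 pairs) had a peak in both libraries. For a gene with such a TSS, the most 5′ TSS is not the one that was open. Pinlyp/Xrcc1 is among the 15, with the nearest peak 382 and 362 bp outside the stretch at 8.02 and 7.32. So is Rnf151/Rps2, with a peak 1515 and 1535 bp away at 6.87 and 6.83. Surf4/Stkld1 missed by 58 and 78 bp a peak of 3.05 and 2.40. A further 4 pairs had over 50% repeated sequence, against 6 of the 701 accessible pairs. The other 24 had neither.

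The first 10 of the 43 in alphabetical order show the range of genes. Col4a4/Col4a3 was described above. Bhmt2/Dmgdh encodes 2 enzymes of methionine and choline metabolism known from liver and kidney. Aspa, the aspartoacylase of oligodendrocytes, faces both Gm49340 and the meiosis gene Spata22 from 1 TSS, so its 2 pairs are the same stretch, and the nearest peak lay 1628 and 1666 bp away. Dgcr2/Tssk2 includes a testis-specific kinase, 4931428L18Rik/Pih1d3 an assembly factor of axonemal dynein, and Best1/Rab3il1 a chloride channel of the retinal pigment epithelium. Asb12/Pfn5, Ccnt1/4930415O20Rik and 4930430F08Rik/1700017N19Rik complete the 10. At Dgcr2/Tssk2, Best1/Rab3il1, Ccnt1/4930415O20Rik and 4930430F08Rik/1700017N19Rik another TSS of at least 1 of the genes had a peak in both libraries.

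The authors' deposited segments of significant cleavage (false discovery rate at most 0.05) were also laid over the stretches. Segments and peaks of a library come from the same sequenced library, so the segments are no independent check of the peaks. Such segments lay in all 701 accessible pairs and covered a median of 100% of the stretch. Among the 43 pairs without a peak, 1 held a segment in replicate 1 and 2 in replicate 2, namely Surf4/Stkld1 in both and Nisch/Sema3g in replicate 2. The nearest peak lay a median of 3462 and 3098 bp away, and at 12 pairs it was within 2 kb in both libraries.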

How the data were processed

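DNase-seq was run on the left cerebral cortex of 2 mice, 1 library each. Per the labels and the notes beside the files, the authors deposited 2 peak lists per library, called on that library's own mm10 alignments without pooling, with a signal for each peak whose unit is not stated. Per library the values are multiples of a single step (tolerance 0.1 of a step), the step's meaning is not stated, depth is unknown, and intervals cover counting error only. The authors' deposited segments carry a q-value (false discovery rate) of at most 0.05, and their deposited footprints carry the constant 0.01 in the p-value column, so footprints could not be ranked. For aligner, peak caller and footprint caller, names and versions were not given in the sources used here.

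Genes came from GENCODE M21 and sequence from GRCm38.p6. Peaks were taken from the larger list, with the smaller and stricter list as an alternative. A peak counted when it overlapped a stretch by 1 bp, and a footprint when it lay wholly inside such a peak. Repeated sequence is the percent of runs of 31 bases that occur again in the genome on either strand. Pair finding, overlaps and the repeat share were tested on simulated data, in which 100% of 92 planted pairs were found. Replicates 1 and 2 are the labels' numbers. Since the labels do not state how the animals were sampled, the SD over n = 2 may be partly technical.

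Members, gene lists, motifs and alternatives were chosen with earlier results of these data known. Named pairs were the 10 highest by mean signal, every pair of a list of 20 known ones that met the rule, the first 10 in the alphabet without a peak, the 5 largest ratios in each direction at or above the median, the 2 highest of each of 14 classes and the 5 with the most footprints. A few of the pairs so chosen are not reported here. Tools were bedtools 2.31.1, Matplotlib 3.10.9, Numba 0.67.0, SciPy 1.17.1, pandas 2.3.3 and NumPy 2.4.6 under Python 3.11.15.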

Additional observations from a re-analysis of the deposited data

How the results depend on the processing

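With 2 libraries every value is a description, and the SD over n = 2 against which shifts were judged is itself poorly known. Depth behind a peak is unknown, and the most 5′ annotated TSS need not be the TSS used in cortex. The share of accessible pairs (main value 93.0%) moved out of its interval with no margin around the TSSs (89.8%) and with TSSs up to 2000 bp apart (90.7%). The share with both TSSs covered (68.7%) was 70.5% with no margin, 68.5% with a 500-bp margin, 69.0% when the midpoint of the peak had to lie inside, 66.6% with coding transcripts only, 64.6% up to 2000 bp, 71.3% up to 500 bp and 67.9% with the stricter list. The share with the highest peak between the TSSs (66.8%) was, for the same settings but the stricter list, 70.8%, 66.0%, 68.7%, 68.1%, 67.9% and 65.9%. Footprints per pair (median 5) became 3.5 with footprints of at least 10 bp only, and 5.5 with 1-bp overlap or a 500-bp margin. The median of the pairs' mean signals (3.82) became 4.36 when peaks were summed and 6.90 in units of the median of all peaks. On that last scale the log2 ratio between libraries (-0.16) reversed to 0.39, because all peaks together had a lower median in replicate 2. The share of motif matches in footprints (37.8%) became 60.6% when any overlap counted. With 2 libraries, leaving out 1 cannot move a mean of both by more than their SD, so it gives no check of those means, and neither the ratio nor the motif share was computed without a library. The share of accessible pairs was 93.6% with either library alone.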

Other observations

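The requirement that gene bodies do not overlap leaves out divergent pairs whose annotated first exons overlap, a group looked at after 9 of the 20 known pairs were seen to fall into it. There were 305 coding pairs whose 5′ ends overlap by at most 500 bp (median overlap 236 bp). Of these, 289 had a peak in both libraries (94.8%, Wilson interval 91.6% to 96.7%), with median signals of 3.43 and 3.02 and a median of 5 footprints in each library. These values lie close to those of the pairs that do not overlap, and the difference was not tested.

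Of the known pairs, 9 were in this group and all 9 were accessible. Hspd1/Hspe1, the mitochondrial chaperonin and its co-chaperonin, overlap by 112 bp and had signals of 6.53 and 4.49. Ndufs1/Eef1b2, a complex I subunit and a translation elongation factor, overlap by 9 bp and had 6.05 and 5.47. Ppat/Paics, both enzymes of purine synthesis, had 4.15 and 4.84. Sirt3/Psmd13 had 3.98 and 3.34, Hars/Hars2 3.85 and 3.54 and Surf1/Surf2 2.05 and 1.94. The lowest were Col4a1/Col4a2, the collagen IV chains of vascular and most other basement membranes, at 1.39 and 1.14, and Tk1/Afmid, with the thymidine kinase of dividing cells, at 1.09 and 1.03. Col4a1/Col4a2 thus had a DHS in a tissue in which Col4a4/Col4a3 had none.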
